A study of Homo sapiens with 6 samples.

Results

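The ETS transcription factors were taken as the probe sets annotated to exactly 1 gene symbol among ELF3, EHF, ELF1, ELF4, ETS1, ETS2, ETV4, ETV5, ELK1 and GABPA. All 10 genes were found, measured by 31 of the 49395 probe sets and forming 10 of the 18132 genes. Their values come from 6 Affymetrix arrays, 1 per sample, of total RNA from cells labelled TPC-1, a human line of papillary thyroid carcinoma. In 3 samples the cells carry a lentivirus expressing a FAM60A shRNA, and in the other 3 a lentivirus expressing a control shRNA, so infection and growth in RPMI1640 with serum are common to both groups. The genotype labels read FAM60A1 knockdown and control, and which shRNA sequence was used is not stated in the labels. The samples of a group are described as independent, and since nothing says that they came from separate cultures, tests measure the spread between these samples, which may be technical.

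SINHCAF, the current symbol of FAM60A and a subunit of the SIN3-HDAC co-repressor, goes against its label. Its log2 signal exceeded that of the control arrays by 1.24 ± 0.038 in the arrays labelled as its knockdown (SE, 3 arrays a group; limma, adjusted p = 1.08e-06). By exact permutation over arrays, two-sided, p = 0.1, and a design of 3 against 3 cannot go lower. The groups are therefore named below by their labels alone, and every difference is that of the arrays labelled FAM60A shRNA minus the arrays labelled control shRNA. RNA extraction is described for DLD1, a colorectal cancer line, in place of TPC-1. Each deposited value is a log2 expression value minus the median of its probe set over the 6 arrays. Positive and negative signs within a gene thus follow from the centring, and only distances between arrays carry information. The level before centring survives as a coarse class, on the log2 scale, of the lowest of the 6 arrays: 2 to 4, 4 to 8, or 8 or more. The classes are read from the rounding of the numbers. Of 12051 probe sets placed at 8 or more, 776 (6.44%) had a step that belongs to 16 or more, so that a probe set can come out 1 class too high. The lowest class held 16 of 17 control tags without a target and 26.3% of all probe sets. Of 7 thyroid markers, among them TG, TSHR, PAX8 and SLC5A5, 0 had a probe set at 8 or more and 7 of 16 probe sets belonged to the class of 2 to 4. At 8 or more were 3 of 7 intestinal markers and 36.5% of all genes. Of 7 leukocyte and 6 endothelial markers, 1 and 0 had a probe set there. Of the intestinal probe sets 5 of 14 belonged to the class of 2 to 4. Every probe set lay in that class for 2 intestinal markers and 1 thyroid marker.

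ETS factors share a DNA-binding domain, the ETS domain, which contacts a GGAA core, and the flanking letters and the partner proteins separate the members. ELF3 and EHF belong to the epithelium-specific branch, whose members act in differentiating epithelia, the intestine among them. ETS1, ETS2 and ELK1 are phosphorylated by ERK kinases, and the PEA3 factors ETV4 and ETV5 are induced by RAS-ERK signalling. GABPA is expressed in nearly all tissues and acts with a GABPB subunit on housekeeping and mitochondrial genes.

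The sequence just before the transcription start was compared between the members, since several of them moved in the same direction. RefSeq promoter windows of GRCh38.p14 were at hand for 7 of the 10 genes, in 13 windows. Those of the epithelial factors ELF3 and EHF, of ETS2, which had the largest difference after ELF3, and of GABPA, which holds the match to an ETS site, are printed from base 250 to base 1 before the start, 5′ to 3′ on the strand of the gene, with motif matches in capitals. The window of ELF3 is chr1:202010337-202010586, that of EHF, the first of its 2, is chr11:34624007-34624256, that of ETS2, also the first of 2, is chr21:38804933-38805182, and that of GABPA is chr21:25734722-25734971, all on the plus strand.
ELF3: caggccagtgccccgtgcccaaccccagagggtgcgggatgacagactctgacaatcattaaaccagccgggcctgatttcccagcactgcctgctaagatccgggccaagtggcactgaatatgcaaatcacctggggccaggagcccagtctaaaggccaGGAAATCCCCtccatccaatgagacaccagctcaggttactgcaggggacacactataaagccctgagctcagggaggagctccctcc
EHF: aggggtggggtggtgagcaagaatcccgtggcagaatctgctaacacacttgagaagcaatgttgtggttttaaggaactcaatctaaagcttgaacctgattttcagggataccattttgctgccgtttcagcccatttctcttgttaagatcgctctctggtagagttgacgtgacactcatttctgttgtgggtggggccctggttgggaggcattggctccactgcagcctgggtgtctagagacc
ETS2: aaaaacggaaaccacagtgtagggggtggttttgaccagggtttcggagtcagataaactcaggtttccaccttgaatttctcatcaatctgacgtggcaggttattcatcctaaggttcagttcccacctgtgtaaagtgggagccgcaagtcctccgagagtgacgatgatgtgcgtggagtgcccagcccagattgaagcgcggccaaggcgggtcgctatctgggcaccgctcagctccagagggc
GABPA: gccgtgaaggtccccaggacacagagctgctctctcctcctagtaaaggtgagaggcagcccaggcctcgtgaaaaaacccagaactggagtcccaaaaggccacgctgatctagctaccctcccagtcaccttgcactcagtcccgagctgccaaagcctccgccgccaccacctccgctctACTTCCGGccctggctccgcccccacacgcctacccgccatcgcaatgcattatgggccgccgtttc
No match lies in the windows of EHF and ETS2 beyond bare GGAA cores, which are left in lower case. The capitals mark a match to the NF-kB consensus in ELF3, on the strand opposite to the gene at bases 88 to 79 before the start, and the ETS letters CCGGAAGT in GABPA, on the opposite strand at bases 67 to 60. Both strands were searched. The NF-kB consensus was found in 1 of the 13 member windows and in 5.21% of all 35116 windows of this length, and CCGGAAGT in 1 of 13 and 3.42%. The AP-1 letters TGANTCA were found in 1 of 13, the second window of ELF4, and in 6.57% of all windows. The cyclic AMP response letters TGACGTCA were found in 0 of 13 and 1.65%. A bare GGAA core, which overlaps the NF-kB match in ELF3 and the ETS match in GABPA, was found in 11 of 13 windows and in 92.7% of all. A match is a description of the letters and not a site in use.

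ELF3 differed more between the labels than any other ETS factor, and ETS2, ELF4, EHF and ELF1 were also higher in the arrays labelled FAM60A shRNA, while ETS1, ELK1, GABPA and ETV5 were lower and ETV4 was level. At an adjusted p under 0.05 in the limma fit over all genes, which is the threshold used throughout, 9 of the 10 members passed, where 44.9% of all 18132 genes did. Of these, 5 were higher, against 19.8% of all genes, and 4 lower, against 25.0%. The groups did not overlap in 9 of 10 members and in 53.2% of all genes. The members were selected on these same differences between the labels, so that their differences and calls are a description with no test. Of their 31 probe sets, 17 were higher, where 18.1% of all probe sets were, 9 were lower, where 22.7% were, and 5 did not pass. In all 26 member probe sets and 40.8% of all probe sets passed. The members also differ from all genes in level, since 9 of the 10 had a probe set at 8 or more, against 36.5% of all genes. The part of level in the share of members that passed was not tested. The median log2 difference of the members was 0.28 and that of all genes -0.012. The members' median was 0.001 without x_at and s_at probe sets, where ELF3 has no value. RNA was taken from whole cultures, in which fewer cells of a kind and less RNA per cell cannot be told apart.

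**Figure D1:**
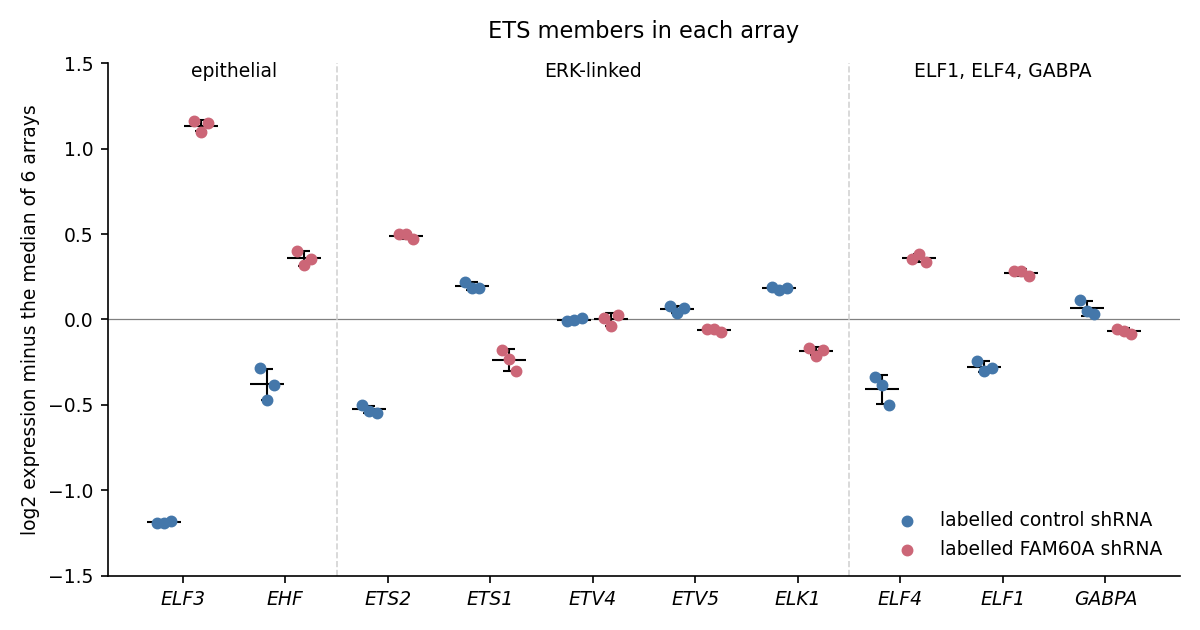
Expression of the 10 ETS members in each of 6 arrays, as log2 value minus the median over the arrays (vertical axis), with gene means over probe sets as points and the group mean ± SD as black bars (n = 3 per group). ELF3 lies near -1.2 in the arrays labelled control shRNA and near 1.1 in those labelled FAM60A shRNA, whereas the points of ETV4 overlap at 0.

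The epithelial factors were both higher in the arrays labelled FAM60A shRNA. ELF3, an activator of epithelial differentiation and inflammatory genes, had log2 values of -1.19, -1.19 and -1.18 in replicates 1, 2 and 3 labelled control shRNA and of 1.16, 1.10 and 1.15 in those labelled FAM60A shRNA. The groups did not overlap. In single probe sets of ELF3 the arrays labelled control shRNA spread more, with -0.995, -1.204 and -1.159 in the second. In the mean of the 3 probe sets the SD within a label was 0.0075 and 0.035. The signal was 5.00-fold higher (95% confidence interval 4.75 to 5.27), a log2 difference of 2.32 ± 0.032 (SE), which ranked 12 from the top of 18132 genes. Rank and sign follow the labels, and with the labels exchanged it would rank 12 from the bottom. Whether they were exchanged was not tested. The size depended on the normalization. After quantile normalization was applied again, the log2 difference of ELF3 was near 2.0. This is below its 95% confidence interval of 2.25 to 2.40 in the main fit. After cyclic loess, and with arrays centred on their medians, the difference was 2.34. The interval does not cover the choice of normalization. The 3 probe sets of ELF3 gave 2.37, 2.21 and 2.39. The lowest array was read as 8 or more in the first and the last of them and as 4 to 8 in the second. The first is among the 776 with a step of 16 or more, and each of the 3 can have come out 1 class too high. As read, the lowest array was above the class of 2 to 4 in all 3. That class holds 16 of 17 tags without a target, and the second probe set may belong to it. All of them are of the kind that can share probes with related transcripts (s_at), so ELF3 has no value once such probe sets are set aside.

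EHF, the close relative of ELF3 that also acts in epithelia, had log2 values of -0.29, -0.47 and -0.38 in the arrays labelled control shRNA and of 0.40, 0.32 and 0.35 in those labelled FAM60A shRNA. The groups did not overlap, and the first array labelled control shRNA was the highest of its group. The signal was 1.67-fold higher (95% confidence interval 1.53 to 1.82), a log2 difference of 0.74 ± 0.052 (SE). All 8 probe sets of EHF were higher, from 0.36 to 1.22. The probe set in the class of 8 or more gave 1.22 and the 2 in the lowest class gave 0.40 and 0.50, with 5 between them in class at 0.36 to 1.20. With the probe set of largest variance standing for the gene, the difference of EHF was 1.22. ELF5, also of the epithelial branch, was not a member and had a difference of 0.096 (95% confidence interval -0.001 to 0.19), which did not pass (limma, adjusted p = 0.103). All 3 of its probe sets lay in the lowest class. After cyclic loess between the arrays ELF5 passed at 0.13 (limma, adjusted p = 0.0373).

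**Figure D2:**
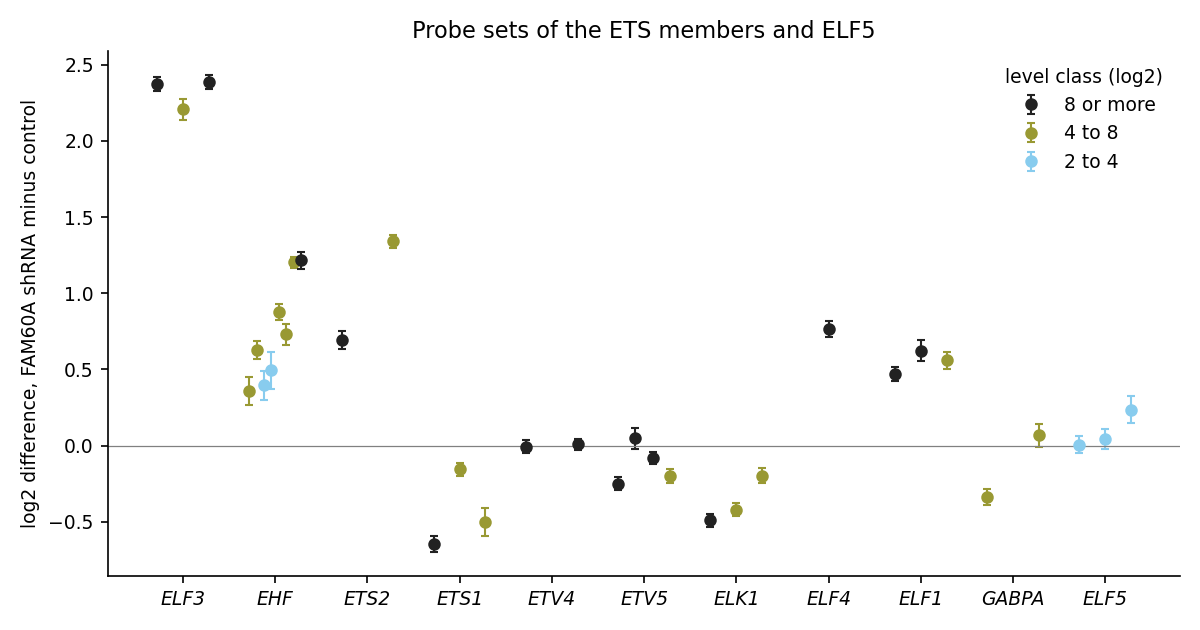
Log2 difference (arrays labelled FAM60A shRNA minus control shRNA, vertical axis) of each probe set of the 10 members and of ELF5, with bars of 1 SE and colour for the level class of the lowest array. The 3 probe sets of ELF3 lie between 2.21 and 2.39, those of EHF spread from 0.36 to 1.22, and those of GABPA lie on both sides of 0.

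The factors linked to ERK signalling went in both directions. ETS2, a target of ERK phosphorylation, had log2 values of -0.50, -0.53 and -0.55 in the arrays labelled control shRNA and of 0.50, 0.50 and 0.47 in those labelled FAM60A shRNA. Its groups lay far apart compared with the spread inside them. The signal was 2.02-fold higher (95% confidence interval 1.93 to 2.13), a log2 difference of 1.02 ± 0.030 (SE). With the probe set of largest variance alone it was 1.34. Its 2 probe sets gave 0.69, in the class of 8 or more, and 1.34, in that of 4 to 8.

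ETS1, the closest relative of ETS2 and a regulator of proteinase and vascular genes, was lower instead. Its log2 values were 0.22, 0.18 and 0.18 in the arrays labelled control shRNA and -0.18, -0.23 and -0.30 in those labelled FAM60A shRNA. The groups did not overlap, and the third array labelled FAM60A shRNA was the lowest. The difference was -0.43 ± 0.040 (SE), a 1.35-fold lower signal (95% confidence interval 1.26 to 1.44), and the 3 probe sets gave -0.65, -0.15 and -0.50. ELK1, which binds with SRF at immediate-early genes, had log2 values of 0.19, 0.18 and 0.19 in the arrays labelled control shRNA and of -0.17, -0.21 and -0.18 in those labelled FAM60A shRNA. These groups too were apart. The difference was -0.37 ± 0.030 (SE), a 1.29-fold lower signal (95% confidence interval 1.23 to 1.36), with all 3 probe sets lower at -0.49, -0.42 and -0.20.

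The PEA3 factors among the members, ETV4 and ETV5, whose transcripts follow RAS-ERK signalling, differed little. ETV4 had log2 values of -0.009, -0.002 and 0.01 in the arrays labelled control shRNA and of 0.011, -0.04 and 0.029 in those labelled FAM60A shRNA, so that the groups overlapped. Its difference of 0.001 had a 95% confidence interval of -0.075 to 0.077, and both probe sets lay in the class of 8 or more. The sign of so small a value changed when single arrays were left out. ETV5 had log2 values of 0.076, 0.037 and 0.066 in the arrays labelled control shRNA and of -0.055, -0.054 and -0.074 in those labelled FAM60A shRNA. The groups did not overlap, at a difference of -0.12 ± 0.030 (SE). Of its 4 probe sets 2 passed, at -0.25 and -0.20, and 2 did not, at 0.047 and -0.082. The probe set of largest variance is that at -0.25.

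ELF4 and ELF1, which act widely and are best known from lymphocytes, were higher in the arrays labelled FAM60A shRNA. ELF4, with 1 probe set in the class of 8 or more, had log2 values of -0.34, -0.38 and -0.50 in the arrays labelled control shRNA and of 0.35, 0.38 and 0.34 in those labelled FAM60A shRNA. The difference was 0.77 ± 0.047 (SE), a 1.70-fold higher signal (95% confidence interval 1.57 to 1.84), without overlap. ELF1 had log2 values of -0.24, -0.30 and -0.29 against 0.28, 0.28 and 0.25 in the same order. Its difference was 0.55 ± 0.032 (SE), a 1.47-fold higher signal (95% confidence interval 1.39 to 1.54), with 0.47, 0.62 and 0.56 in its 3 probe sets.

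GABPA, the DNA-binding subunit of GABP, was lower by a small amount. Its log2 values were 0.11, 0.048 and 0.031 in the arrays labelled control shRNA and -0.053, -0.068 and -0.087 in those labelled FAM60A shRNA. The difference was -0.13 ± 0.035 (SE), and without replicate 3 labelled FAM60A shRNA it was -0.12 and did not pass (limma, adjusted p = 0.053). The probe sets disagreed, with -0.34 in the first and 0.068 in the second, which did not pass, so the gene mean stands for neither. Both lay in the class of 4 to 8.

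Arranged by difference, the members ran from ELF3 (2.32) through ETS2 (1.02), ELF4 (0.77), EHF (0.74) and ELF1 (0.55) to ETV4 (0.001), ETV5 (-0.12), GABPA (-0.13), ELK1 (-0.37) and ETS1 (-0.43). Among neighbours in this order the 95% confidence intervals overlap for ELF4 and EHF, EHF and ELF1, ETV4 and ETV5, ETV5 and GABPA, and ELK1 and ETS1, and they do not for the other pairs. Both epithelial members were higher, while the 5 ERK-linked members had a median of -0.12 with 1 higher and 3 lower, and ELF1, ELF4 and GABPA a median of 0.55 with 2 higher and 1 lower. With ELF5 added, 2 of 3 factors of the epithelium-specific branch passed. Of all genes 44.9% passed, with 19.8% higher and 25.0% lower, and groups of 2 to 5 genes are too small to set against these shares.

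Of the other 18 ETS family genes, 3 were higher, 4 lower and 11 did not pass, 38.9% past against 44.9% of all genes, with a median of -0.004. ETV6, a repressor of the family, rose by 0.83 ± 0.044 (SE; limma, adjusted p = 8.37e-06), and ERF, a repressor that ERK removes from the nucleus, rose by 0.44 ± 0.046, with probe sets from 0.19 to 0.88, the latter its most variable. ELK3 and ELK4, the relatives of ELK1 that also bind with SRF, had differences of -0.78 ± 0.036 and -0.39 ± 0.035 (SE), so all 3 factors of this branch were lower. The most variable probe set of ELK4 gave -0.71. ETV1, also a PEA3 factor, fell by 0.39 ± 0.037 (SE), and its difference was -0.84 without the probe sets of the lowest class, which hold 6 of its 8, and -0.90 in the most variable probe set. ETV2, a factor of endothelial development, fell by 0.32 with 1 probe set. SPIB, known from B cells, was higher by 0.15 with 1 probe set in the lowest class, and it did not pass with robust eBayes, with genes taken from their most variable probe set, after removal of x_at and s_at probe sets, or in 4 of the 6 omissions of single arrays (replicates 1 and 3 labelled control shRNA, replicates 2 and 3 labelled FAM60A shRNA), which gave 0.11 to 0.16. Of the 28 ETS genes together, 8 were higher, 8 lower and 12 did not pass. Among the 18 genes 4 had every probe set in the lowest class, SPIB, SPI1, SPIC and ELF5.

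**Figure D3:**
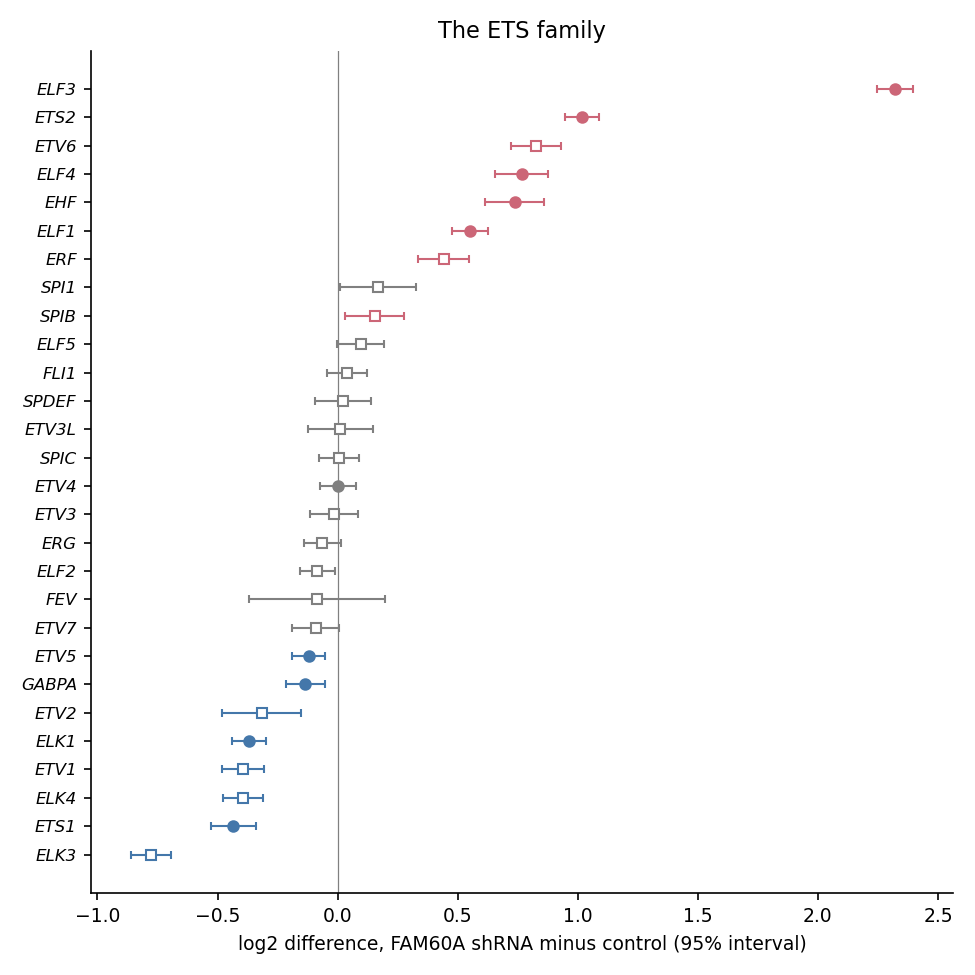
Log2 difference (arrays labelled FAM60A shRNA minus control shRNA, horizontal axis) of all 28 ETS family genes with 95% confidence intervals. Filled circles are the 10 members, open squares the other 18 genes, red and blue those that passed in the higher and lower direction, and grey those that did not pass. ELF3 at 2.32 stands to the right of ETS2 at 1.02, and ELK3 at -0.78 is the lowest.

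Partners and regulators of ETS proteins moved in both directions. Of 10 measured, 4 rose and 6 fell, with a median of -0.17, where 44.9% of all genes passed. The acetyltransferases CREBBP and EP300, co-activators that ETS1 and ETS2 bind, rose by 0.83 ± 0.048 and 0.57 ± 0.086 (SE), and without x_at and s_at probe sets CREBBP rose by 0.48. CIC, the repressor of the PEA3 genes, rose by 0.19 ± 0.038 (SE). SRF, the partner of ELK1, rose by 0.22 as a mean of probe sets at 0.029 and 0.41, and without its s_at probe set the difference of 0.029 did not pass (limma, adjusted p = 0.687). DET1, which with COP1 directs PEA3 factors to degradation, fell by 0.79 ± 0.041 (SE; limma, adjusted p = 7.29e-06). FBXW7, a ubiquitin ligase subunit, fell by 0.44, the GABPA partner GABPB2 by 0.43, and MED23, the Mediator subunit that ELK1 contacts, by 0.30, or 0.45 in its most variable probe set.

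Components of the RAS-ERK cascade, which acts on the ERK-linked members, were mostly lower. Of 12 measured, 7 fell, where 25.0% of all genes did, and 2 rose, where 19.8% did, with a median of -0.16. The 7 include NF1, a negative regulator of RAS, at -0.19, with probe sets from -0.70 to 0.18. ARAF, a RAF kinase, fell by 0.49 ± 0.031 (SE), with probe sets from -0.85 to -0.34, the ERK kinase MAPK3 by 0.32, its activator MAP2K1 by 0.27 and HRAS by 0.19. The kinases RPS6KA1 and RPS6KA3, which ERK activates, rose by 0.37 ± 0.028 and 0.22 ± 0.040 (SE), and for RPS6KA3 the probe sets gave -0.14 and 0.58.

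Genes that respond to ERK signalling split. Of 18 measured, 4 rose and 8 fell, beside 19.8% and 25.0% of all genes, with a median of -0.054, and 6 did not pass. EPHA2, an ephrin receptor, fell by 0.63 ± 0.032 (SE), and the immediate-early genes EGR1 and FOS, which ELK1 and SRF control, fell by 0.60 ± 0.030 and 0.49 ± 0.033 with all of their probe sets lower. DUSP4, a phosphatase of ERK, fell by 0.58. PHLDA1, DUSP5 and IER3, also induced by ERK, rose by 0.82 ± 0.029, 0.81 ± 0.033 and 0.74 ± 0.034 (SE), and DUSP6 rose by 0.36 in all 4 of its probe sets. CCND1 had a difference of -0.061 (95% confidence interval -0.13 to 0.01) and did not pass (limma, adjusted p = 0.148).

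Genes placed downstream of ELF3 or EHF in published work included some of large difference, but the list as a whole was near the background. Among 14 measured genes 5 rose and 1 fell, while 8 did not pass, 42.9% of the list against 44.9% of all genes, with a median of 0.048. The chemokine CCL20 rose by 2.93 ± 0.036 (SE; limma, adjusted p = 5.06e-08), the iron-siderophore binder LCN2 by 1.60 ± 0.036, the tight-junction claudin CLDN7 by 0.94 ± 0.030 and the prostaglandin synthase PTGS2 by 0.40, or 0.68 in its most variable probe set. The other gene that rose was NOS2, named after its values were seen, at 0.27, and without the probe sets of the lowest class, which hold 2 of its 3, its difference was -0.095 and did not pass (limma, adjusted p = 0.074). ZEB1, a repressor of epithelial genes, fell by 0.49 ± 0.059 (SE), and by 0.84 without the lowest class, with -1.01 in its most variable probe set. TGFBR2, an ELF3 target in epithelium, had a difference of -0.14 and did not pass (limma, adjusted p = 0.101). Without replicate 1 labelled FAM60A shRNA it passed at -0.19 (limma, adjusted p = 0.031), and its more variable probe set gave -0.053. Of the 40 probe sets of these genes 22 lay in the lowest class, and 3 genes had no other.

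Targets ascribed to ETS1 and the PEA3 factors, mostly of matrix breakdown, also lay near the background. Of 11 measured, 3 rose and 2 fell, 45.5% of the list against 44.9% of all genes, with a median of 0.013. VEGFA, an angiogenic growth factor, rose by 0.86 ± 0.033 (SE) in all 10 of its probe sets, the urokinase PLAU by 0.79 ± 0.065 and the matrix metalloproteinase MMP7 by 0.59 ± 0.055, with probe sets from -0.14 to 1.12. The most variable probe set gave 1.19 for PLAU and 1.12 for MMP7, and MMP7 stood at 0.88 without the lowest class. The urokinase receptor PLAUR and the metalloproteinase inhibitor TIMP1 fell by 0.38 ± 0.031 and 0.37 ± 0.034 (SE).

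Mitochondrial genes ascribed to GABPA were lower in 9 of 15, where 25.0% of all genes were, with 2 higher and a median of -0.14. The 11 genes past the threshold became 7 without x_at and s_at probe sets. COX17, a copper chaperone of cytochrome oxidase, fell by 0.84 ± 0.033 (SE), its subunits COX4I1 and COX7C by 0.23 and 0.19, and the ATP synthase subunit ATP5F1B by 0.18. TFB2M, a mitochondrial transcription factor, and PPRC1, a co-activator, rose by 0.31 and 0.27. The most variable probe set of COX4I1 gave -0.38. All 15 had a probe set in the class of 8 or more, against 36.5% of all genes, so the 25.0% comes from genes of other levels. The part of level in the share of lower genes was not tested.

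**Figure D4:**
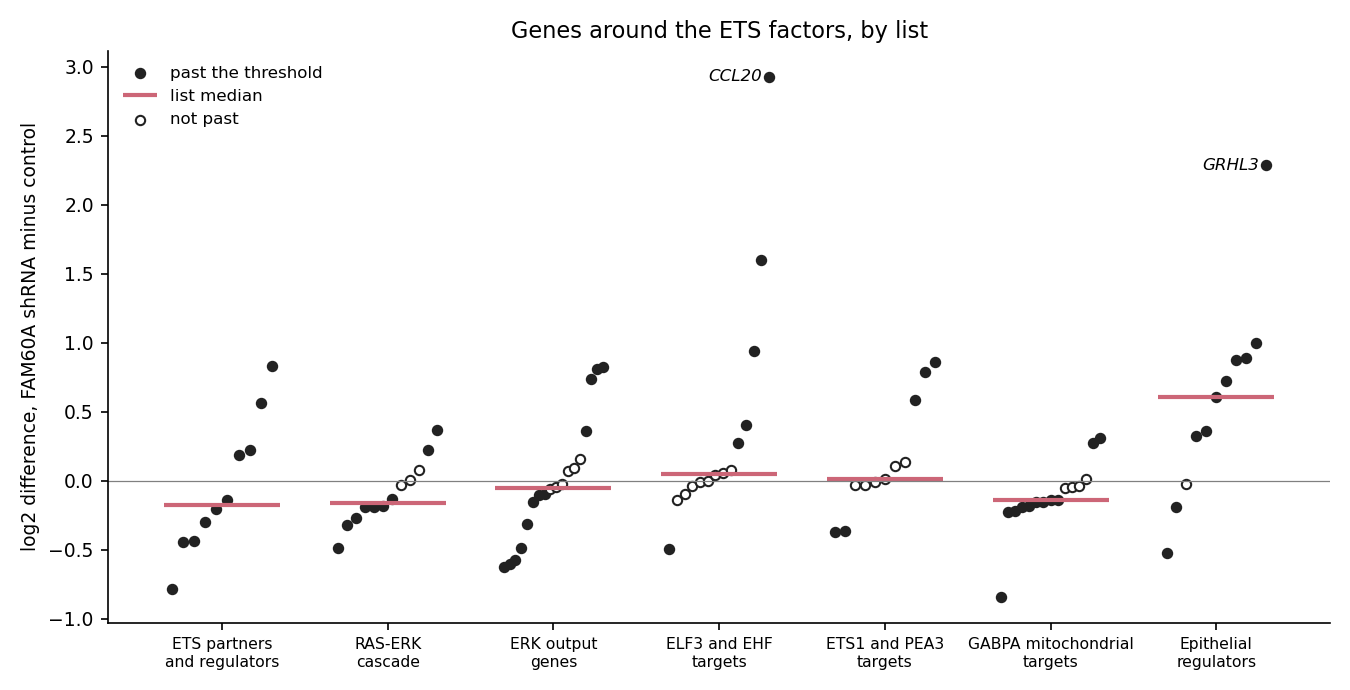
Log2 difference (arrays labelled FAM60A shRNA minus control shRNA, vertical axis) of single genes in 7 lists around the ETS factors, with genes past the threshold filled, others open, and the median of each list as a red line. The median is highest among epithelial regulators, at 0.61, and CCL20 and GRHL3 lie far above their lists.

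Other regulators of epithelial identity, most of them transcription factors, were mainly higher, as ELF3 and EHF were. Among 11 measured genes 8 rose and 2 fell, and GRHL2 did not pass, beside 19.8% higher and 25.0% lower among all genes, with a median of 0.61. GRHL3, a grainyhead factor of barrier epithelia, rose by 2.29 ± 0.063 (SE; limma, adjusted p = 7.74e-07), close to ELF3 in size. The intestinal homeobox factor CDX2 rose by 0.999 ± 0.036, the epithelial splicing factor ESRP1 by 0.88 ± 0.034 and the pioneer factor FOXA1 by 0.72 ± 0.031. OVOL2 and GRHL1, also epithelial, fell by 0.52 ± 0.049 and 0.19 ± 0.046 (SE), and the most variable probe set of GRHL1 gave -0.46. The marker lists of other cell types are to be read against the same 19.8% and 25.0% of all genes. Among them 4 of 7 intestinal markers rose and 0 fell, KRT20 by 1.20, CDX2 by 0.999, CDH17 by 0.82 and LGALS4 by 0.16, with the mean of the list at -0.25 to -0.24 in the arrays labelled control shRNA and 0.23 to 0.25 in those labelled FAM60A shRNA. Of 7 thyroid markers 0 rose and 1, HHEX, fell by 0.97, with the list at 0.067 to 0.072 and -0.12 to -0.072. The part of such cell identity differences in the values of ELF3 and EHF was not tested. Of 7 leukocyte markers 2 rose, CD68 by 0.26 and CD79A by 0.14, and of 6 endothelial markers 1 rose, EGFL7 by 0.19, with 0 lower in both. CD79A did not pass under any alternative choice of probe sets, nor without replicate 1 labelled control shRNA or replicates 2 or 3 labelled FAM60A shRNA, at 0.12, 0.12 and 0.14.

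The 5 genes nearest to ELF3 in Euclidean distance over the 6 arrays were PRSS23, a serine protease, at 0.074, PKM, the glycolytic pyruvate kinase, at 0.10, the calcium-binding protein S100A16 at 0.17, GRHL3 at 0.21 and ASCL2, a factor of intestinal stem cells, at 0.22. This measure picks genes of the same size of difference, and theirs ran from 2.20 to 2.44. PRSS23 had log2 values of -1.17, -1.21 and -1.16 in the arrays labelled control shRNA and of 1.18, 1.16 and 1.17 in those labelled FAM60A shRNA. No array of PRSS23 lay between the labels.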

How the data were processed

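Total RNA of 6 samples was labelled with biotin and hybridised to Affymetrix arrays, and the samples were grouped by their titles. The deposited table holds log2 values; RMA is the method that the submitters' processing notes name, with neither program nor chip description. The medians of the probe sets over the 6 arrays were 0 to within 5e-07, so the values had been centred. Base 2 was assumed, since that is the output of RMA. Medians of the arrays lay between -0.015 and 0.010, and the number of arrays limits the precision.

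Symbols came from the annotation of the platform, and the 44988 probe sets with 1 symbol were averaged into 18132 genes. Tests omitted 102 control probe sets. The comparison used limma 3.58.1 (lmFit, eBayes; R 4.3.3), two-sided, with Benjamini-Hochberg adjustment over all genes or all probe sets and a threshold of 0.05, and the fit was tested on simulated data. A level class was read from the finest single-precision rounding step among the 6 values of a probe set, with a tolerance of 2e-09, and 16 probe sets had none.

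The members and gene lists were chosen with earlier results of these data known. The rule for named genes took the members, SINHCAF, ELF5, other ETS genes that passed, up to 4 genes per list and direction with the smallest p, TGFBR2, CCND1, ZEB1, and the 5 genes nearest to ELF3. Of 160 list entries 14 were not analysed here. Alternatives were 3 normalizations, other probe set rules, a filter on the lowest class, robust eBayes, a replicate block and leaving out each array. Promoter windows are those of RefSeq, GRCh38.p14.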

Additional observations from a re-analysis of the deposited data

How the results depend on the processing

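Of the 10 members, 9 kept their direction under each of the 14 alternatives that gave them a value, and the exception was ETV4, whose difference is near 0. It was -0.006 with the probe set of largest variance and between -0.013 and 0.021 when single arrays were left out. The difference of GABPA ranged from -0.15 to -0.11 over those omissions and lost its call without replicate 3 labelled FAM60A shRNA, which left 8 members past the threshold. After quantile normalization was applied again, the difference of ELF3 was near 2.0, against 2.32 in the main fit. That of ETS2 was then 0.93, against 1.02. After removal of x_at and s_at probe sets ELF3 had no value, 8 of 9 members passed and the members' median was 0.001, the value of ETV4. That median was 0.30 after cyclic loess and 0.31 with the probe set of largest variance. Without x_at and s_at probe sets the GABPA targets past the threshold numbered 7, the leukocyte markers 0 and the endothelial markers 0. These counts cover only genes that keep a probe set, 16701 of all genes, and not full lists. With the probe set of largest variance the leukocyte markers numbered 1 and the endothelial markers 2, and without the lowest level class the leukocyte markers numbered 1. NOS2 changed sign without the lowest class, at -0.095. When single arrays were left out, 1 to 2 thyroid and 1 to 2 leukocyte markers passed. No pairing of the samples by replicate number is stated, so the main fit had no block. Same-numbered arrays correlated at 0.161, 0.059 and 0.078 in their deviations from the group means. Arrays of different number correlated at -0.105 to 0.04. Values this small cannot decide whether the samples were paired. With the replicate block 9 members and 8170 genes passed, against 8136 genes without it, and 2 thyroid markers did, and TGFBR2 passed at -0.14 (limma, adjusted p = 0.048). Every array did correlate best with its own number, a hint from the data and not from the design. The cause of these changes was not tested. Splits of all genes into higher and lower were 3595 and 4541, and 4063 and 4049 after cyclic loess. The median of all genes was -0.012, and 0.001 to 0.014 after the 3 other normalizations.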
